A study of Mus musculus with 6 samples.

Results

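The genes described here are 8 Krüppel-like factors (KLFs), *Klf6*, *Klf4*, *Klf7*, *Klf9*, *Klf10*, *Klf12*, *Klf13* and *Klf16*, taken by name from the 47643 genes of a mouse count table. *Klf6* was chosen because it rose with anti-PD1 and not with anti-Lag3 in these same samples, so its values are a description and carry no test. The other 7 genes were named with it as family members. Of the 8 genes, 7 had reads and passed the filter of at least 10 reads over all samples, and *Klf12* had no read in any of them. The filter looked at the sum over the samples and not at any group.

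The cells were CD4+ T cells sorted from the spleen as *Nr4a3*-Blue+Red+. All mice were of the strain labelled Tg4 Tiger *Nr4a3*-Tocky. They carried a transgenic T cell receptor (TCR) for a peptide of myelin basic protein, an *Il10* GFP reporter and a Timer protein driven from *Nr4a3* regulatory sequence, which fluoresces blue when new and then turns red, so Blue+Red+ cells had signalled earlier and were still signalling or had signalled again. Every mouse received 80 μg of peptide under the skin and, 24 h later, 800 μg of antibody into the peritoneum, followed after 30 min by 8 μg of peptide; spleens were taken 4 h later. The antibody was a pool of rat IgG1 and IgG2a (isotype), anti-PD1 (clone 29F.1A12) or anti-Lag3 (clone CB97W in the labels), with 2 libraries in each of 3 groups. The ages of the mice are not given in the labels. No group without peptide was analysed here, so whether these KLF genes respond to the TCR could not be checked in these data; all 6 libraries come from stimulated cells.

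KLFs are transcription factors that bind GC-rich and CACCC-like DNA through zinc fingers near the end of the protein, and they differ mainly in the rest of the protein, which recruits partners. *Klf6*, *Klf7* and *Klf4* belong to the class best known as activators, which work with histone acetyltransferases. *Klf12* belongs with *Klf3* to the class that represses through CtBP, and *Klf9*, *Klf10*, *Klf13* and *Klf16* to the class that represses through Sin3 and histone deacetylases. In T cells, *Klf2* and *Klf4* are known for holding cells in quiescence, and *Klf2* also for driving genes of lymph node homing and egress.

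The second zinc finger of each gene is shown because it is the part of the coding sequence that these factors share. The 69 bases are read 5′ to 3′ on the coding strand of the GENCODE M21 transcripts, and the capitals mark the codons of the cysteines and histidines that hold the zinc.
Klf6: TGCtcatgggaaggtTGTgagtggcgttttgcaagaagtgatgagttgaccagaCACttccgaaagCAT
Klf7: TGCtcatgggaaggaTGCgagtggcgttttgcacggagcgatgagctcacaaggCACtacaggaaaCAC
Klf4: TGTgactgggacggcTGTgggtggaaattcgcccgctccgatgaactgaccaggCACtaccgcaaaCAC
Klf12: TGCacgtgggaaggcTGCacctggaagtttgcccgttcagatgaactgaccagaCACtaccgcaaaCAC
Klf9: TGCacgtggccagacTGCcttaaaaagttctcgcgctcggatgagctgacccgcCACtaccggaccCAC
Klf10: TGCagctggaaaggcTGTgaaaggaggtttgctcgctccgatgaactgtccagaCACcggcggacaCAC
Klf13: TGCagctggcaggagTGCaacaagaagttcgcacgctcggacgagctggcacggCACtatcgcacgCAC
Klf16: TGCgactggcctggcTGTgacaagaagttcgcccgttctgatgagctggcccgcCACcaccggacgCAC

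All 8 coding sequences held 3 such fingers close to their ends. Over the 243 bases from the first finger to the last, the 28 pairs of genes had between 57.2% and 81.1% identical bases, with a median of 64.6%. The closest pair was *Klf6* and *Klf7*, at 81.1%. *Klf6* shared 68.7% with *Klf4*, 72.8% with *Klf12*, 58% with *Klf9*, 59.3% with *Klf10*, 60.5% with *Klf13* and 60.1% with *Klf16*. The libraries, however, read the 3′ ends. In the last 500 bases of the transcripts, no stretch of 35 bases of 7 of the genes was found in another gene, and *Klf13* shared such a stretch with *Tanc2*.

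The libraries are 3′ end libraries, in which a transcript gives reads from its end only, so levels were not divided by transcript length. They held from 2107715 to 2648920 counted reads. Levels are given as CPM, counts per 1000000 reads of a library after scaling between libraries, and 3 reads correspond to 1.11 to 1.44 CPM. The summed level of 8 CD4 T cell markers, all detected, ran from 1450 to 1730 CPM. Of 7 B cell markers 6 had reads, with *Cd79a* at 0. Their sum was 117 and 132 CPM in isotype, 62.8 and 51.1 CPM in anti-PD1, and 82.7 and 122 CPM in anti-Lag3. All 10 macrophage and monocyte markers had reads, with sums of 64.1 and 60 CPM in isotype, 20.1 and 34.8 CPM in anti-PD1, and 33.7 and 39.7 CPM in anti-Lag3. The remaining lists gave sums of at most 1.88 CPM for dendritic cells (*Zbtb46* and *Siglech* at 0), 18.7 to 51.8 CPM for erythroid cells, 1.49 to 19.7 CPM for neutrophils (*Ly6g* at 0) and 29.8 to 56.1 CPM for CD8 T and NK cells. Both anti-PD1 libraries were below both isotype libraries in all of these sums but those of CD4 T and erythroid cells. Both anti-Lag3 libraries were below isotype in the macrophage, neutrophil, and CD8 T and NK cell sums. With 2 libraries a group, such separations also arise often without a difference, and their share over all genes was not counted. The dendritic sums were near the floor, at 1.88 and 0.805 CPM in isotype and 0 and 0.409 CPM in anti-PD1. For neutrophils the gap was small, with 8.01 and 19.7 CPM in isotype and 6.71 and 6.54 CPM in anti-PD1. Their B cell sums overlapped isotype, but most of these sums was *Ighm*, with 82.5 and 95.8 CPM in isotype and 70 and 108 CPM in anti-Lag3. The 6 tested B cell markers had a median log2 fold change of -1.19 for anti-Lag3 against isotype. What part these cells have in the KLF levels was not tested, and in bulk samples fewer cells of a type and less RNA per cell cannot be told apart.

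*Klf6* is a widely expressed factor known as an early response gene in many cell types. It lies on chr13:5861482-5870394 (GRCm38, plus strand), with no other annotated gene over it. It had 171 and 131 reads in isotype, 230 and 333 in anti-PD1, and 110 and 208 in anti-Lag3. Scaled, this was 80.6 and 52.7 CPM in isotype, 110 and 136 CPM in anti-PD1, and 46.4 and 77.3 CPM in anti-Lag3. Both anti-PD1 libraries lay above all 4 others, the lower of them at 1.36 times the highest of the rest, while isotype and anti-Lag3 overlapped.

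The group means of *Klf6* were 66.7 ± 19.7 CPM (SD, n = 2) in isotype, 123 ± 18.4 CPM (SD, n = 2) in anti-PD1 and 61.8 ± 21.8 CPM (SD, n = 2) in anti-Lag3. These are the values on which the gene was chosen. The fitted log2 fold change was 0.90 (SE 0.20, 95% interval 0.5 to 1.29) for anti-PD1 against isotype and 0.99 (SE 0.19, 0.6 to 1.38) against anti-Lag3. Anti-Lag3 against isotype gave -0.09 (SE 0.20, -0.5 to 0.32), and its sign turned with a library left out (-0.51 to 0.24). The libraries of one group differed by up to 1.67 times, and the estimate against isotype ran from 0.62 without isotype 2 to 1.23 without isotype 1. Against anti-Lag3 it ran from 0.68 without anti-Lag3 1 to 1.40 without anti-Lag3 2. The 2 comparisons with anti-PD1 share the anti-PD1 libraries.

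**Figure D1:**
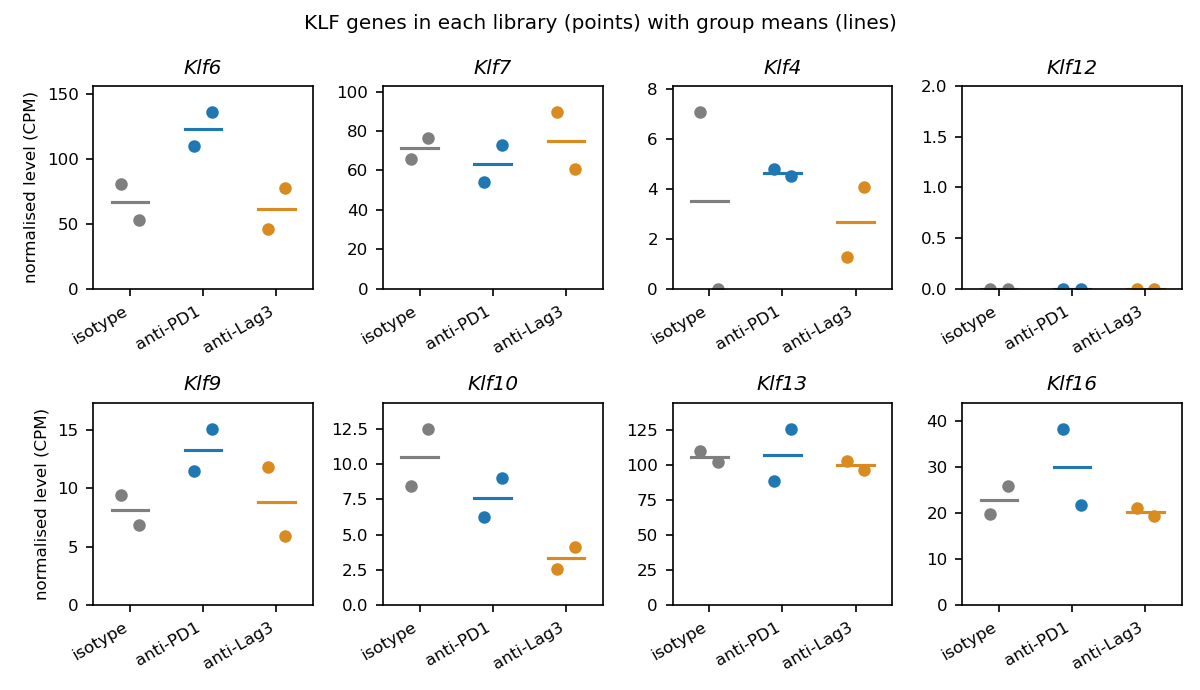
Level of each KLF gene (CPM, each vertical axis from 0 with its own range) in the isotype, anti-PD1 and anti-Lag3 groups; points are libraries and lines are means of 2 libraries. *Klf6* reached 110 and 136 CPM in the anti-PD1 libraries against at most 80.6 CPM elsewhere, and *Klf12* was at 0 throughout.

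The promoter of *Klf6* is shown because this is the member whose level set the anti-PD1 libraries apart. The RefSeq table of promoters (GRCm38.p6) matched 6 of the 8 genes, not *Klf10* and *Klf16*. The 240 bases are chr13:5861239-5861478 on the plus strand, read 5′ to 3′, and the capitals mark the CCAAT box on either strand.
Klf6 promoter: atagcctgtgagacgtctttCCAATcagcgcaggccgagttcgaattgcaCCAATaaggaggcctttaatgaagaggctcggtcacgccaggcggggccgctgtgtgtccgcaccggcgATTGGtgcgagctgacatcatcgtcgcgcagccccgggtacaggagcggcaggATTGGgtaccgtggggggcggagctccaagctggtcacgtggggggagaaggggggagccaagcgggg

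The stretch was 64.2% G and C. The motifs below were searched on both strands over windows of 240 bases, in the first promoter listed for each gene symbol. None of the motifs contains another. For the CCAAT box, with the letters CCAAT, *Klf6* held 4 CCAAT, *Klf9* held 3, *Klf13* held 2, and none was found in *Klf4*, *Klf7* and *Klf12*. Of 27025 promoters, 33.7% held at least 1 such box and 0.847% held 4 or more. The GC box GGGCGG was found once in *Klf6* and *Klf7*, 4 times in *Klf4* and 2 times in *Klf13*, and in 31.5% of all promoters. CACCC, which is close to the sites that KLFs bind, was not found in *Klf6* and was present 3 times in *Klf7*, against 50% of promoters with at least 1. The E box CACGTG, which reads the same on both strands and was counted once, was found in *Klf6* and *Klf4*, and in 5.71% of all promoters. The cyclic AMP response motif TGACGT was found once each in *Klf9* and *Klf13*, and in 6.15% of all. A match is a run of letters and not a measured binding site.

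*Klf7* is the gene closest to *Klf6* in the finger region and is known for its role in neurons. It lies on chr1:64029447-64122282 (minus strand) and overlaps *Mir6899* on its own strand and *Gm26649* and *Gm13748* on the other. Its levels were 66 and 76.5 CPM in isotype, 54.1 and 72.8 CPM in anti-PD1, and 89.4 and 60.9 CPM in anti-Lag3, and all 3 groups overlapped. The log2 fold change was -0.16 (SE 0.20, 95% interval -0.56 to 0.23, adjusted p = 0.93) for anti-PD1 against isotype and -0.23 (SE 0.19, -0.62 to 0.16, adjusted p = 0.921) for anti-PD1 against anti-Lag3. Anti-Lag3 against isotype gave 0.07 (SE 0.19, -0.32 to 0.46, adjusted p = 0.984). *Klf7* did not pass the test in any comparison, and the difference between *Klf7* and *Klf6* was not tested.

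*Klf4*, a pluripotency factor that also restrains T cell proliferation and is expressed by monocytes, lies on chr4:55527143-55532466 (minus strand). It had 15 and 0 reads in isotype, 10 and 11 in anti-PD1, and 3 and 11 in anti-Lag3. Isotype held both the highest and the lowest library, at 7.07 CPM and at 0. The log2 fold changes of 0.44 (SE 0.88) for anti-PD1 and -0.32 (SE 0.92) for anti-Lag3 against isotype had adjusted p = 0.973 and 0.985. Anti-PD1 lay above anti-Lag3 in both libraries, 4.79 and 4.5 CPM against 1.27 and 4.09 CPM, with a log2 fold change of 0.76 (SE 0.89, adjusted p = 0.969). A change of *Klf4* was not detectable at this depth: the 95% interval for anti-PD1 against isotype ran from -1.34 to 2.22, and leaving out 1 library moved the estimate between -0.6 and 6.5.

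*Klf12*, a repressor that binds CtBP, lies on chr14:99870632-100284679 (minus strand), with *4930517O19Rik* and *Gm16260* on the other strand. It had 0 reads in all 6 libraries, which allows up to 1.11 to 1.44 CPM in a library, counting error only. No fold is given. *Klf3*, not among the 8 genes, is the gene of the same class with enough reads to test. It had 33.5 and 55.9 CPM in isotype, 23.5 and 20.9 CPM in anti-PD1, and 28.3 and 29 CPM in anti-Lag3.

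Both anti-PD1 libraries and both anti-Lag3 libraries were below isotype for *Klf3*. It fell by 1.02 on the log2 scale with anti-PD1 (SE 0.27, adjusted p = 0.0482), the only call among the 9 other KLF genes tested by edgeR. The call was lost with DESeq2 (adjusted p = 0.35) and limma-voom (adjusted p = 0.0759), and without isotype 2 (-0.60, adjusted p = 0.732), anti-PD1 1 (adjusted p = 0.212) or anti-PD1 2 (adjusted p = 0.439). Against isotype, anti-Lag3 gave -0.65 (adjusted p = 0.699), and whether the 2 antibodies differ was tested directly, with -0.37 for anti-PD1 against anti-Lag3 (adjusted p = 0.903). *Klf3* overlaps *C230096K16Rik* on its own strand and *Gm20033* on the other.

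Among the Sin3 class, *Klf13* had the most reads. It is known as a late factor of T cell activation that drives *Ccl5*, and it lies on chr7:63886351-63938915 (minus strand) with *Gm27252* and *E030018B13Rik* on the other strand. It had 110 and 102 CPM in isotype, 88.6 and 126 CPM in anti-PD1, and 103 and 96.9 CPM in anti-Lag3. The anti-PD1 libraries spanned the other 4. The log2 fold change was 0.02 (SE 0.16, 95% interval -0.3 to 0.35, adjusted p = 0.988) for anti-PD1, -0.08 (SE 0.16, -0.4 to 0.25, adjusted p = 0.969) for anti-Lag3 against isotype, and 0.10 (SE 0.16, -0.22 to 0.43, adjusted p = 0.979) between the antibodies. These are the narrowest intervals of the members. Its reported target *Ccl5* was near the floor, with at most 2.83 CPM in a library.

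*Klf16*, a little studied factor that binds GC boxes, lies on chr10:80567124-80577321 (minus strand). It had 19.8 and 25.8 CPM in isotype, 38.3 and 21.7 CPM in anti-PD1, and 21.1 and 19.3 CPM in anti-Lag3. The anti-PD1 libraries overlapped isotype and lay above both anti-Lag3 libraries, the second of them by little. The log2 fold changes were 0.38 (SE 0.30, adjusted p = 0.851) and -0.18 (SE 0.30, adjusted p = 0.967) against isotype, and 0.56 (SE 0.30, 95% interval -0.04 to 1.16, adjusted p = 0.791) between anti-PD1 and anti-Lag3. None passed the test.

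*Klf9*, a gene induced by glucocorticoid and thyroid hormones, lies on chr19:23141226-23168134 (plus strand) and overlaps *Mir1192*. It had 9.42 and 6.84 CPM in isotype, 11.5 and 15.1 CPM in anti-PD1, and 11.8 and 5.94 CPM in anti-Lag3, from 16 to 37 reads a library. Both anti-PD1 libraries were above isotype, and anti-Lag3 overlapped both. The log2 fold change of 0.72 for anti-PD1 against isotype (SE 0.44, 95% interval -0.17 to 1.61, adjusted p = 0.737) did not pass. Anti-Lag3 against isotype gave 0.12 (SE 0.46, adjusted p = 0.985), and anti-PD1 against anti-Lag3 gave 0.60 (SE 0.43, adjusted p = 0.897). At this depth the interval for anti-PD1 against isotype reaches from a small fall to a rise of 1.61 on the log2 scale.

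*Klf10*, known as an early gene of TGFβ signalling, lies on chr15:38291463-38300706 (minus strand). It had 18 and 31 reads in isotype, 13 and 22 in anti-PD1, and 6 and 11 in anti-Lag3, or 8.48 and 12.5, 6.23 and 9, and 2.53 and 4.09 CPM. Both anti-Lag3 libraries lay below all 4 others, and anti-PD1 and isotype overlapped. The log2 fold change of anti-Lag3 against isotype was -1.64 (SE 0.54, 95% interval -2.74 to -0.55), the largest in size of any member in any comparison, and its adjusted p = 0.641 did not pass. Anti-PD1 against anti-Lag3 gave 1.19 (SE 0.56, 95% interval 0.06 to 2.32, adjusted p = 0.743), and anti-PD1 against isotype -0.46 (SE 0.49, adjusted p = 0.908). The estimate for anti-Lag3 against isotype stayed between -2.03 and -1.33 with each library left out in turn. *Klf10* stood lowest under anti-Lag3, whereas *Klf6* stood highest under anti-PD1.

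**Figure D2:**
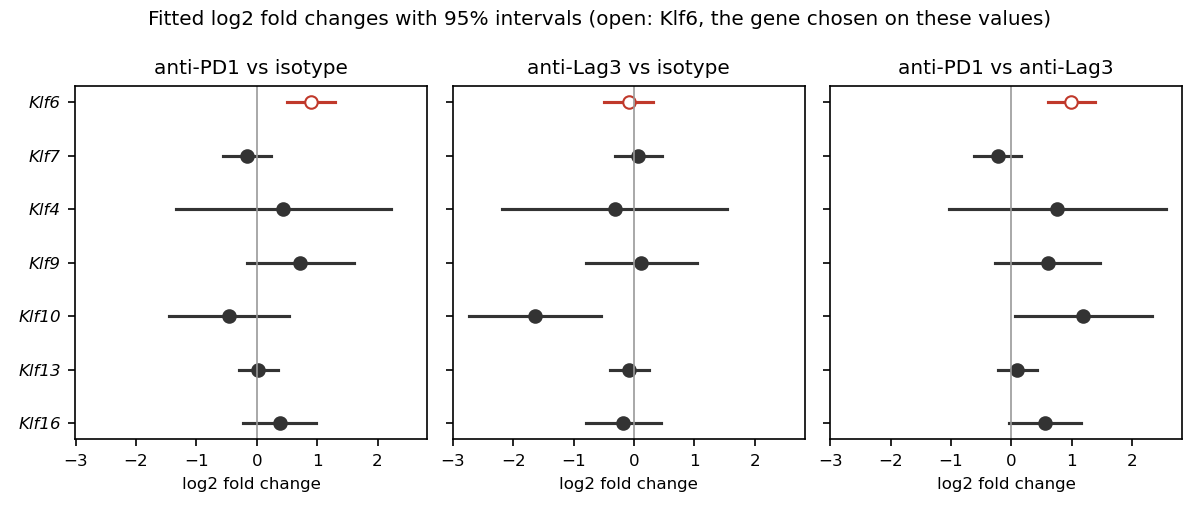
Fitted log2 fold change (horizontal axis, points) with 95% intervals (lines) of the 7 detected KLF genes in the 3 comparisons; the open symbol is *Klf6*, which was chosen on these values. The intervals of *Klf4* are widest and those of *Klf13* narrowest, and *Klf10* lies at -1.64 for anti-Lag3 against isotype.

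Of the 6 tested members other than *Klf6*, 0 passed in any of the 3 comparisons by edgeR. Over all 11877 genes tested, 107 passed between anti-PD1 and isotype (0.901%; 75 higher and 32 lower), 5 between anti-Lag3 and isotype (0.0421%) and 36 between anti-PD1 and anti-Lag3 (0.303%). The counts over all genes include *Klf6*. A count of 0 among 6 genes is close to the shares over all genes. At an unadjusted p under 0.05, the members counted 0, 1 and 1 in that order by edgeR, in both cases *Klf10*, against 8.12%, 5.96% and 6.53% of all genes. DESeq2 and limma-voom each called 0 members, and at the unadjusted threshold each counted 0, 1 and 0. The median log2 fold change of the 6 members was 0.20 with anti-PD1 (4 above 0 and 2 below), -0.13 with anti-Lag3 (2 above and 4 below) and 0.58 between the antibodies (5 above and 1 below). The medians over all tested genes were 0.00448, 0.000707 and -0.00248.

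**Figure D3:**
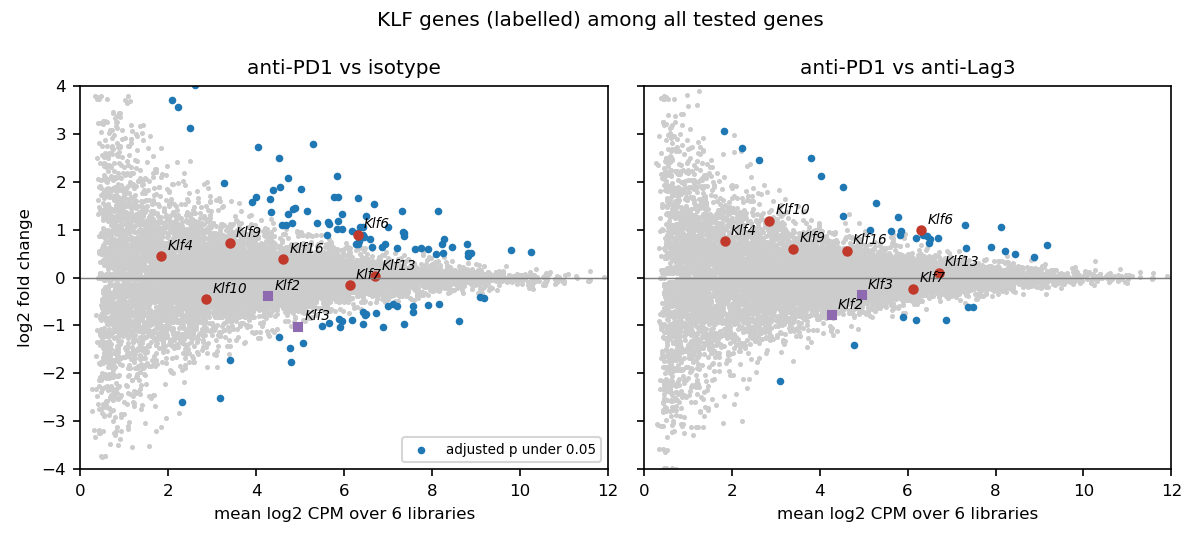
Log2 fold change against mean log2 CPM over the 6 libraries for all tested genes (grey), genes with an adjusted p under 0.05 by edgeR (blue), members (red circles) and *Klf2* and *Klf3* (purple squares); the vertical axis stops at 4 and -4. *Klf6* lies at 0.90 and 0.99, *Klf13* near 0 in both panels, and *Klf3* at -1.02 against isotype.

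The KLF family was next read as a whole, as a share of reads in each library. Of its 17 genes, 12 had a read, 10 were tested and 5 were at 0. *Klf6* took 22.9% (95% Wilson interval 20 to 26.1) and 14.9% (12.7 to 17.4) of the family's reads in isotype, and 14% (11.8 to 16.7) and 23.9% (21.2 to 26.8) in anti-Lag3. In anti-PD1 it took 31.6% (28.3 to 35) and 31.9% (29.1 to 34.8). The intervals cover counting error only. The anti-PD1 shares were alike and above the others, as the choice of *Klf6* implies, whereas each other group held a high and a low library.

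The summed level of the family was 352 and 354 CPM in isotype, 349 and 427 CPM in anti-PD1, and 330 and 324 CPM in anti-Lag3. Without *Klf6*, it was 271 and 301 CPM in isotype, 239 and 291 CPM in anti-PD1, and 284 and 246 CPM in anti-Lag3, and all groups overlapped. *Klf13* took between 25.4% and 31.3% of the reads in every library and *Klf7* between 15.5% and 27.1%. *Klf2*, outside the 8 genes, had 16.5 and 20.9 CPM in isotype, 10.1 and 18.4 CPM in anti-PD1, and 25.7 and 24.1 CPM in anti-Lag3. Its log2 fold change was -0.79 for anti-PD1 against anti-Lag3 (SE 0.33, adjusted p = 0.644), and it passed in no comparison.

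**Figure D4:**
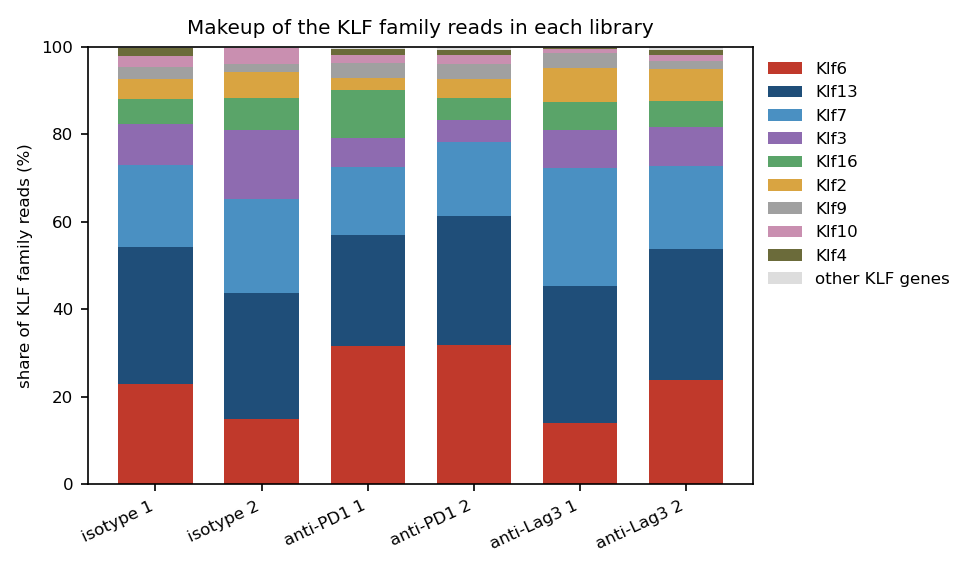
Share of KLF family reads (%, stacked to 100) taken by each gene in the 6 libraries. The *Klf6* segment is 31.6% and 31.9% in the anti-PD1 libraries and between 14% and 23.9% in the others.

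By the correlation of log2 CPM over the 6 libraries, among 5432 genes with a mean of at least 20 CPM, the profiles most like that of *Klf6* were those of *Eloa* (Pearson r = 0.994), *Ddx39* (0.987), *Zfand5* (0.986), *Mysm1* (0.983), *Fam50a* (0.981) and *Fam210a* (0.976). Spearman's rho was 1 for the first 3 and 0.943 for the rest. *Eloa* encodes a subunit of an elongation factor of RNA polymerase II, and *Ddx39* an RNA helicase. With so many genes and 6 libraries that share 3 treatments, high values arise for some genes in any case, and no test was made. The sizes of the differences were unlike: *Eloa* ran from 70.8 to 90.4 CPM and *Zfand5* from 23.2 to 49.9 CPM, against 46.4 to 136 CPM for *Klf6*.

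**Figure D5:**
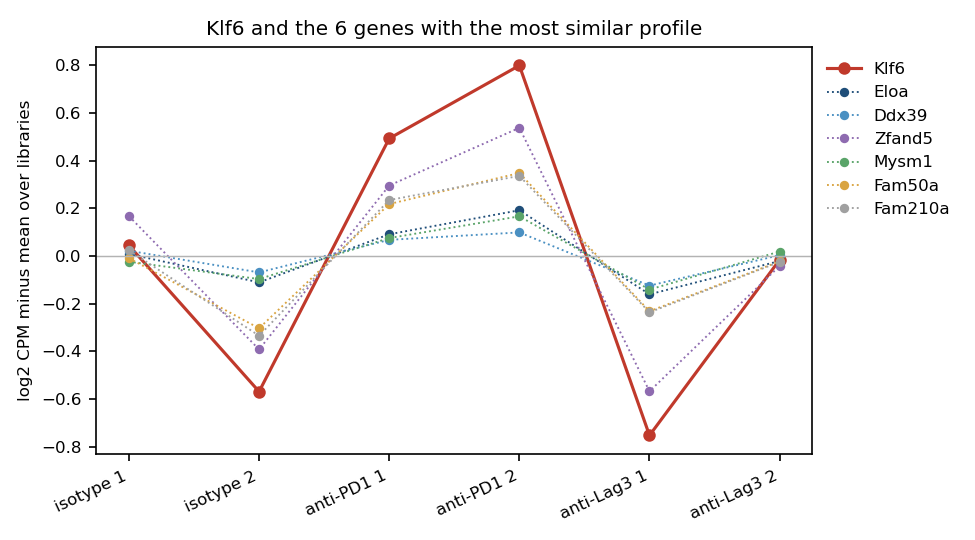
Log2 CPM minus its mean over the 6 libraries (vertical axis) for *Klf6* (solid line) and the 6 genes with the most similar profile (dotted lines), with lines only to guide the eye. *Klf6* moves over a wider range than the other genes, whose correlation with it is 0.976 to 0.994.

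The partners of the KLFs were tested in the same fit. Of the acetyltransferases that work with the activators, 0 of 4 passed in any comparison by edgeR, and none did at an unadjusted p under 0.05. *Crebbp* had a mean of 208 CPM in isotype, 205 CPM in anti-PD1 and 195 CPM in anti-Lag3, and *Ep300* 97.2, 104 and 97.1 CPM. Of the CtBP genes only *Ctbp1* could be tested, with a log2 fold change of -0.29 for anti-PD1 against isotype (adjusted p = 0.695). Of 8 genes of the Sin3 complex 0 passed, with 1, 1 and 0 at an unadjusted p under 0.05 (8.12%, 5.96% and 6.53% of all tested genes). In both cases this was *Sin3b*. It gave 0.44 with anti-PD1 (adjusted p = 0.543) and 0.41 with anti-Lag3 (adjusted p = 0.813) against isotype. *Rbbp4*, a histone-binding subunit, had means of 314, 304 and 301 CPM. Of the related SP family, 4 genes were tested and 0 passed, with 0 at the unadjusted threshold, and *Sp1* had 190, 178 and 166 CPM. Among 6 ubiquitin ligase genes linked to KLF turnover 0 passed, with 0 at the unadjusted threshold. DESeq2 and limma-voom also called 0 genes of each of these lists in each comparison.

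Genes reported elsewhere as KLF targets did not pass either. Of 15 tested, 0 passed in each comparison by edgeR, with 3, 1 and 4 at an unadjusted p under 0.05 (8.12%, 5.96% and 6.53% of all tested genes), and 0 passed by DESeq2 or limma-voom. *Ccr7*, the lymph node homing receptor, had 125 and 161 CPM in isotype and 188 and 190 CPM in anti-PD1, with a log2 fold change of 0.40 (SE 0.14, adjusted p = 0.247). *Bcl2l1*, a survival gene, had means of 53.8 CPM in isotype, 65.5 CPM in anti-PD1 and 41 CPM in anti-Lag3, and its log2 fold change between the antibodies was 0.68 (SE 0.20, adjusted p = 0.231). *Tbx21*, the factor of type 1 helper cells, gave -0.24 (adjusted p = 0.87) for anti-PD1 against isotype. The list's median log2 fold change was -0.24, -0.10 and 0.35, in the order of the comparisons above.

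*Klf6* is itself counted among early response genes, which cell preparation can also raise, so 24 immediate-early and dissociation genes were read beside it. Of 21 tested, 0 passed in each comparison by edgeR, with 5, 4 and 2 at an unadjusted p under 0.05 (8.12%, 5.96% and 6.53% of all tested genes), and 0 passed by DESeq2 or limma-voom. Their summed level was 808 and 841 CPM in isotype, 939 and 852 CPM in anti-PD1, and 784 and 872 CPM in anti-Lag3, with the median log2 fold change at 0.06, -0.03 and 0.12. *Dusp2*, a phosphatase of MAP kinases, had means of 137, 166 and 146 CPM in isotype, anti-PD1 and anti-Lag3, and *Junb*, an AP-1 subunit, 94.7, 132 and 123 CPM. *Junb* was higher in anti-PD1 than in isotype in both libraries, with a log2 fold change of 0.48 (SE 0.16, adjusted p = 0.183). *Nr4a3*, whose reporter defined the sort, had 51.4 and 45.1 CPM in isotype, 29.7 and 29.4 CPM in anti-PD1, and 40.9 and 36.8 CPM in anti-Lag3, and gave -0.70 for anti-PD1 against isotype (SE 0.23, adjusted p = 0.195). *Nr4a3* RNA was lowest in the anti-PD1 libraries, where *Klf6* was highest, but isotype 1 had the highest *Nr4a3* and the highest *Klf6* outside anti-PD1. By flow cytometry, the study found more *Nr4a3*-Blue in responding cells with anti-PD1 than with isotype or anti-Lag3. That is a reporter protein and not RNA, so the 2 measures are unlike. *Jun*, another AP-1 subunit, had 21.2 and 14.5 CPM in isotype, 24 and 35.6 CPM in anti-PD1, and 9.7 and 21.2 CPM in anti-Lag3. With anti-PD1 it gave 0.75 against isotype (adjusted p = 0.504) and 0.94 against anti-Lag3 (adjusted p = 0.45). *Socs3* gave 0.94 with anti-PD1 (adjusted p = 0.0915) and 0.78 with anti-Lag3 (adjusted p = 0.667) against isotype. Others went down with anti-PD1 against isotype: *Egr1* gave -0.64 (adjusted p = 0.345) and *Fos* -0.83 (adjusted p = 0.681). *Jund* stayed level at -0.04 (adjusted p = 0.987). The 5 genes at the unadjusted threshold in that comparison were *Socs3*, *Junb*, *Jun*, *Nr4a3* and *Egr1*. For anti-PD1 against isotype, 13 genes of the list lay above 0 and 8 below. The part of cell preparation in the level of *Klf6* was not tested.

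Of the 8 T cell markers, 1 passed between anti-PD1 and isotype and 5 lay below 0, with a median log2 fold change of -0.28. *Cd5*, a receptor that damps TCR signalling, rose by 1.01 on the log2 scale (SE 0.19, adjusted p = 0.00154), and lost the call without anti-PD1 2 (0.76, adjusted p = 0.267). The TCR complex genes *Cd3d* (-0.34, adjusted p = 0.402) and *Cd3e* (-0.38, adjusted p = 0.296) and the coreceptor *Cd4* (-0.32, adjusted p = 0.454) did not pass, with both anti-PD1 libraries below both isotype libraries in each; these were named after their values were seen. Of the B cell markers, *Igkc* fell by 2.51 (adjusted p = 0.00132, and 0.156 without anti-PD1 2) and *Ighm* fell by 0.89 (adjusted p = 0.00836, 0.0738 with DESeq2, 0.216 without isotype 2 and 0.339 without anti-PD1 2). The complement gene *C1qa* of macrophages fell by 2.59 (adjusted p = 0.0266, 0.191 with DESeq2, 0.0968 with limma-voom, and 0.145 to 0.318 without any one of the 4 libraries compared). Anti-Lag3 against isotype gave 0.63 for *Cd5* (adjusted p = 0.593), -1.21 for *Igkc* (adjusted p = 0.642) and -2.23 for *C1qa* (adjusted p = 0.343). None of these passed, but both anti-Lag3 libraries lay on the same side of isotype as anti-PD1 in each. *Ighm* gave 0 with anti-Lag3 (adjusted p = 0.999). The transcripts of the antibody targets did not pass. Against isotype, *Pdcd1* gave -0.21 with anti-PD1 (adjusted p = 0.966) and *Lag3* gave 0.15 with anti-Lag3 (adjusted p = 0.989).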

How the data were processed

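The authors prepared QuantSeq 3′ libraries, trimmed reads, aligned them with STAR 2.5.2a to mm10 (GRCm38) and used HTSeq to count them over Ensembl genes, per the submitters' processing notes and the study's methods. A further replicate batch, whose samples had been sorted and processed together, was excluded by the authors as an outlier. No label says whether the replicate numbers of the remaining samples also mark such batches. The deposited counts are whole numbers without normalization; the deposited rlog table was not used. The strand setting is not given in the sources used here.

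Genes were named from GENCODE M21 (47224 of 47643 identifiers). The genes that reached 10 reads summed over the 6 samples were fitted together in edgeR 4.0.16 (R 4.3.3, TMM scaling, glmQLFit and glmQLFTest, common dispersion 0.016), with Benjamini-Hochberg adjustment over all 11877 genes and a threshold of 0.05. All adjusted p-values are from this two-sided test unless another tool is named. Intervals are 95%. Alternatives used DESeq2 1.42.0, limma-voom (limma 3.58.1), other filters, scalings and samples. The 2 libraries of a group were not within sampling noise of each other (chi-square over its degrees of freedom, 2.52 to 3.11). The design text calls the duplicates biological, and the study's methods describe replicate mice stained individually for sorting. *Gm42418* took 17.4% to 21% of reads.

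The members and lists were chosen with earlier results of these data known. Named were all members, *Klf2* and *Klf3*, genes called in each list and otherwise at most the 4 most highly expressed, the 6 genes most like *Klf6*, and *Nr4a3*, *Pdcd1* and *Lag3*; *Ccl5* was added after its values were seen. *Jun*, *Socs3*, *Egr1*, *Fos* and *Sin3b* were also named after their values were seen. Figures were drawn with matplotlib 3.10.9.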

Additional observations from a re-analysis of the deposited data

Results flagged for a closer look

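The B cell gene *Ighm*, a marker list gene, passed the test of the difference between the 2 antibodies: its log2 fold change was -0.88 for anti-PD1 against anti-Lag3 (adjusted p = 0.0227, edgeR), with 53.7 and 43.3 CPM in anti-PD1 and 70 and 108 CPM in anti-Lag3. The call was lost with DESeq2 (adjusted p = 0.105) and the filterByExpr filter (0.0534), and without anti-PD1 1 (0.0815), anti-PD1 2 (0.669) or anti-Lag3 2 (0.682). None of the 6 tested members other than *Klf6* passed a test of that difference. *Klf6* was in the same fit, but it was chosen on that difference, so no test of it is given.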

How the results depend on the processing

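Of 294 alternative estimates of the log2 fold changes of the members, 277 kept their sign and 17 did not, and 2 estimates of *Klf6* with a library left out moved by more than the spread between replicates. No member other than *Klf6* was called under any alternative run, the replicate number as a block included (0 in each comparison). Titles number the samples, but deviations of same-numbered samples from their group means correlated at only 0.048, 0.05 and -0.049 over 5433 genes, so the numbers were not taken as pairs. With the replicate block, 144, 6 and 46 genes were called in place of 107, 5 and 36. The log2 fold change of *Klf6* was then 0.88, -0.11 and 0.99.

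Signs turned mainly with a library left out: *Klf4* ran from -0.6 to 6.5 for anti-PD1 and from -1.39 to 5.74 for anti-Lag3 against isotype, and was 1.28 for the latter with limma-voom. *Klf6* ran from -0.51 to 0.24 for anti-Lag3 against isotype, positive without isotype 1 or anti-Lag3 1. *Klf7* ran from -0.4 to 0.03, from -0.23 to 0.33, and from -0.5 to 0.07 between the antibodies. *Klf13* ran from -0.26 to 0.25 with anti-PD1 and from -0.18 to 0.33 between the antibodies, *Klf16* from -0.08 to 0.74 with anti-PD1 and from -0.35 to 0.03 with anti-Lag3, and *Klf9* from -0.45 to 0.55 and *Ighm* from -0.34 to 0.27 with anti-Lag3. The counts over all genes moved more. Between anti-PD1 and isotype 175 genes were called with only the 4 samples compared, and 53 to 185 with a library left out. Between anti-Lag3 and isotype the count was 1 with DESeq2, 0 with 4 samples, 0 with filterByExpr, 20 with a filter of 1 read, 3 without *Gm42418* and mitochondrial rRNA, and 0 to 19 with a library left out. Between the antibodies it was 16 with DESeq2, 58 with the filter of 1 read, and 7 to 59 with a library left out. The cause was not tested. Where a group was left with 1 library, it was assumed to vary like the others. *Klf3* also lost its call with filterByExpr (adjusted p = 0.062) and without *Gm42418* and mitochondrial rRNA (0.0503). Alternatives for *Klf3* and the marker genes were added after seeing the data. With under 40 reads a library, *Klf4*, *Klf9* and *Klf10* are the least precise.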
